A study of Mus musculus with 16 samples.

Results

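The 35 genes described here code for proteins that take a cell through G2 and mitosis. They were listed by symbol, with earlier results of these data known, and 34 of them were measured among the 19938 genes named on the arrays. The remaining one, the cyclin B1 gene Ccnb1, was not analysed here. Top2a and Cks2 had several rows in the table, and each is represented by its brightest row on average.

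The cells were N25/2, an immortalized mouse line made from embryonic hypothalamus, grown in serum-containing medium and then given medium without amino acids (deprived) or medium with amino acids (control). There were 4 deprived and 4 control samples at 5 h, and 1 deprived and 1 control sample at each of 1, 2, 3 and 16 h. Each sample was run on 1 whole-transcript array, and the levels below are the log2 values that the authors deposited. All differences are deprived minus control on that log2 scale. The samples come from 1 line, and nothing in the labels says that they were grown apart, so a p-value here covers only the spread among these samples and that spread may be technical.

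Cells enter mitosis when Cdk1, a kinase, is bound by cyclins A and B and freed of inhibitory phosphates by Cdc25 phosphatases. Plk1 and the Aurora kinases then build the spindle, the kinetochore couples chromosomes to it, and a checkpoint run by Bub1, Bub1b and Ttk holds the cell until every chromosome is attached. Cdc20 next activates a ubiquitin ligase, the anaphase-promoting complex, which destroys the mitotic cyclins, and kinesins and actin regulators divide the cell. Transcripts of most of these genes are low in G1 and high in G2 and mitosis in dividing cells. Their promoters are known for a short element, the cell cycle genes homology region (CHR), which the DREAM complex reads to repress them and the B-Myb and FoxM1 complexes read to activate them. In a bulk sample, fewer cells in G2 or mitosis and less RNA per such cell cannot be told apart.

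The medians of the 16 arrays spanned 7.02 to 7.12 and single values 3.07 to 14.20, and the number of arrays, at most 4 per group and time, limits the precision. All 6 amino acid response genes used as a check (Atf4, Ddit3, Trib3, Asns, Chac1 and Sesn2) rose at 5 h, Trib3 by 2.52 (SE 0.12; adjusted p = 1.74e-05 in limma, n = 4 arrays per group). Of the neural progenitor markers, 2 of 8 were below the median gene level of 7.47, Pax6 and Fabp7, while Nes, Sox2 and Vim were among those above it. Of the neuron markers 10 of 12 were below it, among them Rbfox3, Snap25 and Tubb3, while Stmn2 averaged 12.25 and Map2 9.54. Also below it were 8 of 8 astrocyte and oligodendrocyte, 5 of 6 macrophage and blood, 5 of 5 endothelial and 2 of 9 fibroblast markers. In each 5 h group array 4 differed from arrays 1 to 3, as described after the 5 h results, which are therefore given with and without the arrays numbered 4.

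The promoters are shown first because the CHR element is a feature that most of the members share. RefSeq promoter sequences (GRCm38.p6, 250 bases before to 50 bases after the gene start) were found for 28 of the 34 measured genes, which have 30 promoters. The CHR element, searched as TTTGAA on both strands, was in 24 of these 30 promoters (80 percent; 22 of the 28 genes), against 17.9 percent of all 32851 promoters. Within 50 bases of the start it was in 22 of the 30 (73.3 percent), against 4.94 percent of all. CCAAT, the box bound by NF-Y, was also in 24 of the 30, against 37.4 percent of all, and CHR and CCAAT occurred together in 70 percent, against 6.95 percent of all. The CHR variant TTTAAA was in 26.7 percent of members' promoters and 13.2 percent of all promoters. E2F sites, searched as TTCCCGC, TTTCCCGC (which contains the one before it), TTTGGCGC and TTTCGCGC on both strands, were in 3.33 percent, against 5.33 percent of all. These matches describe the letters in the window and show no binding.

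The 6 promoters printed are those of the members with a promoter sequence that were lowest (Ccnb2, Cenpa, Ccnf) and highest (Kif11, Nusap1, Ect2) in deprived cells at 16 h. Each runs from 5′ to 3′ on the strand of the gene, and capitals mark TTTGAA and its variant TTTAAA as well as CCAAT, on either strand. They lie at chr9:70421505-70421804, minus strand, for Ccnb2, at chr5:30666636-30666935, plus strand, for Cenpa, and at chr17:24251360-24251659, minus strand, for Ccnf. Those of Kif11, Nusap1 and Ect2 lie at chr19:37376132-37376431, plus strand, at chr2:119618048-119618347, plus strand, and at chr3:27153829-27154128, minus strand; the last is 1 of the 2 overlapping promoters listed for Ect2.
Ccnb2: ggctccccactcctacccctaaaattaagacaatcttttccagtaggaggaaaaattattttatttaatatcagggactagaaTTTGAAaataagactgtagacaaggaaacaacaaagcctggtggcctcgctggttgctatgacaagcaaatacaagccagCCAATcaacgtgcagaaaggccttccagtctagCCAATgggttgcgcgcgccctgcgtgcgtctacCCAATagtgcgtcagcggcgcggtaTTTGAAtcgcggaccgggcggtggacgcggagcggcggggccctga
Cenpa: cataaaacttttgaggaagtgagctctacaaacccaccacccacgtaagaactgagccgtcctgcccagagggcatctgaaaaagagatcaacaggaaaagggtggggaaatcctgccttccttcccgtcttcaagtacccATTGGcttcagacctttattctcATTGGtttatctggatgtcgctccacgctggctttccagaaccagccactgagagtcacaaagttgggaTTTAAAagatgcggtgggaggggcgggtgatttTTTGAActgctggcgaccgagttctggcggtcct
Ccnf: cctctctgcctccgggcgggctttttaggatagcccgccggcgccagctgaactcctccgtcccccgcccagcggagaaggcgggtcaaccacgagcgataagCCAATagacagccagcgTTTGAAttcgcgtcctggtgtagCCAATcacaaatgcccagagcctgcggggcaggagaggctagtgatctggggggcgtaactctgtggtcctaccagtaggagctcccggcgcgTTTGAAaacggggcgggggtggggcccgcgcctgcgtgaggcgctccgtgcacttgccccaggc
Kif11: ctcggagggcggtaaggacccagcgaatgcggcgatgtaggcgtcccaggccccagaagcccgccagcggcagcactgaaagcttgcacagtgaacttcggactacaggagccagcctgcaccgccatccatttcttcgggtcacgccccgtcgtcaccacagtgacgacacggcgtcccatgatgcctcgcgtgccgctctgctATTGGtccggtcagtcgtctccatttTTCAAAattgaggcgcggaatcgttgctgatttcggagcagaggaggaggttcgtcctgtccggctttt
Nusap1: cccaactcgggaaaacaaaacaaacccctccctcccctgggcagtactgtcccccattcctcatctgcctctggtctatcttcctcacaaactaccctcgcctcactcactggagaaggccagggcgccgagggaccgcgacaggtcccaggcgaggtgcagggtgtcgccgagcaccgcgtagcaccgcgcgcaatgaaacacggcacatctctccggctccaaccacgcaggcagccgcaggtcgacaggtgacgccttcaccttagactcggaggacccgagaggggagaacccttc
Ect2: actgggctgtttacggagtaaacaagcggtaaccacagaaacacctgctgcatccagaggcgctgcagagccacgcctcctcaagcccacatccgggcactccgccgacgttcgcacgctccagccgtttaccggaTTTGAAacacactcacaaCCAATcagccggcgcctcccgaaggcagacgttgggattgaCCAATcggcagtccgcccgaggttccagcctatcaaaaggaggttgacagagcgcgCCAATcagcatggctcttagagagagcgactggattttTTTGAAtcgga

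With the first base of the gene counted as position 1 and the base before it as -1, Ccnb2 has TTTGAA at 5 to 10, and its 3 CCAAT boxes start at -87, -54 and -21, each 33 bases from the next. Cenpa has TTTGAA at 17 to 22 and TTTAAA at -17 to -12. Ccnf has TTTGAA at -14 to -9, Kif11 has it on the opposite strand at -19 to -14, and the printed Ect2 promoter has it at 40 to 45. Another TTTGAA lies further upstream in Ccnb2 (-167 to -162), Ccnf (-130 to -125) and the printed Ect2 promoter (-114 to -109). Nusap1 has none of these letters in its window. The element was present in members that were lower and in members that were higher at 16 h.

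The first comparison asked whether 5 h without amino acids moved these genes. Levels of 32 of the 34 were lower on average in deprived cells, against 55.4 percent of all genes, but the differences were small, with a median of -0.14 and a range from -0.64 (Ccnf) to 0.16 (Ect2). None of the 34 passed an adjusted p of 0.05 in limma, while 4.11 percent of all genes did (2.41 percent higher and 1.7 percent lower). An unadjusted p under that value was found for 7 of the 34 and for 2740 of all 19938 genes. Only Ccnf was lower by at least 0.5, against 1.33 percent of all genes. With the replicate number as a block, 13 of the 34 (38.2 percent) were lower and none was higher, against 10 percent of all genes lower, 8.22 percent higher and 18.2 percent in either direction. That block assumes that same-numbered arrays belong together, which the labels do not state. Without both arrays numbered 4, 7 of the 34 (20.6 percent) were lower, all of them among those 13, against 7.17 percent of all genes lower, 6.34 percent higher and 13.5 percent in either direction. The map of differences by gene and time shows all 34. Most neural progenitor markers (7 of 8, median -0.11) and fibroblast markers (8 of 9, median -0.14) were also lower on average at 5 h, as were 8 of 12 neuron markers (median -0.01) and 5 of 8 astrocyte and oligodendrocyte markers (median -0.04), and their part in the members' differences was not tested.

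**Figure D1:**
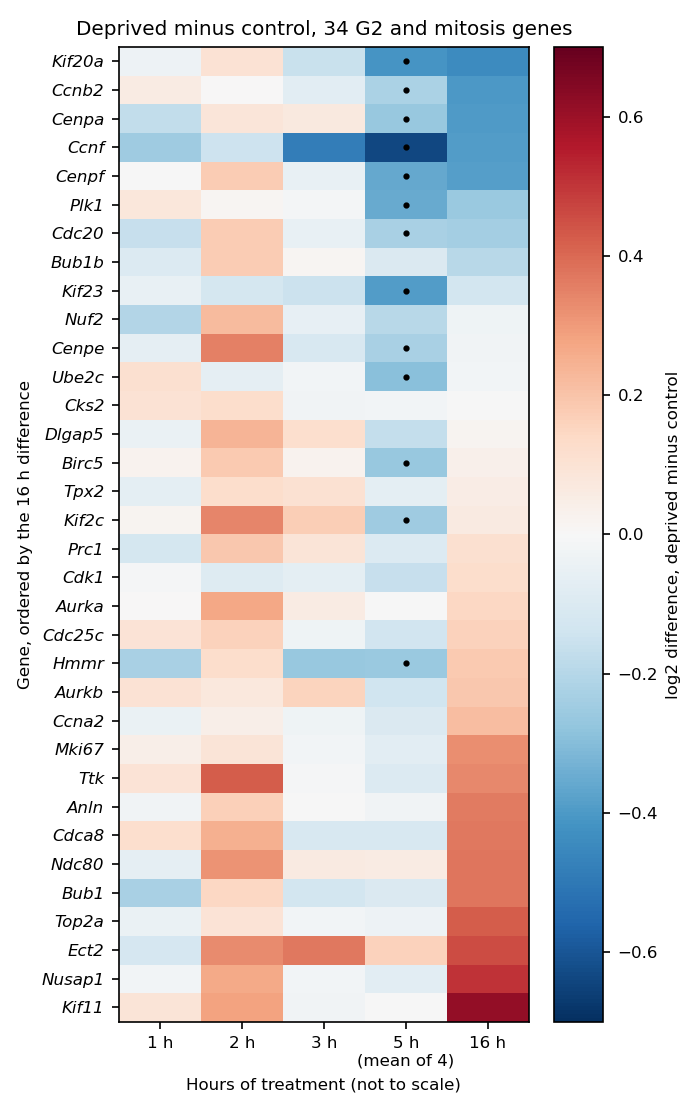
Log2 differences (deprived minus control, colour scale from -0.7 to 0.7) of the 34 genes in rows, ordered by the 16 h difference, at 1, 2, 3, 5 and 16 h in columns; the 5 h column is the mean of 4 arrays per group and the others are 1 array per group. Dots mark the 13 genes with an adjusted p under 0.05 at 5 h with the replicate number as a block. The 5 h difference is below 0 in 32 of 34 rows (blue, or near white where it is small).

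Among the cyclins, Ccnf differed most. It codes for cyclin F, which partners with a ubiquitin ligase and not with Cdk1. Its levels on arrays 1 to 4 were 9.23, 9.18, 9.16 and 9.66 in deprived cells, against 9.99, 9.75, 9.66 and 10.37 in control cells. Every deprived array was below every control array, although the highest deprived and the lowest control value lay close together. The means were 9.31 ± 0.24 in deprived and 9.94 ± 0.31 in control cells (SD, n = 4), a difference of -0.64 (SE 0.17) or a fold of 0.644. Its adjusted p was 0.0749 in limma, 7.38e-05 with the block and 0.000794 without the arrays numbered 4. Ccnb2, cyclin B2, had 11.63, 11.69, 11.60 and 12.15 in deprived cells, against 11.86, 11.72, 11.84 and 12.55 in control cells, and the groups overlapped through the deprived array numbered 4. It differed by -0.22 (SE 0.19; adjusted p = 0.838 in limma, 0.0449 with the block and 0.152 without the arrays numbered 4). Ccna2, cyclin A2, differed by -0.10 (SE 0.10).

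Cdk1, the kinase of mitotic entry, had 11.48, 11.56, 11.48 and 12.09 in deprived cells, against 11.70, 11.74, 11.68 and 12.14 in control cells. Its difference of -0.16 (SE 0.16) did not pass in limma in any of these 3 fits (adjusted p = 0.914, 0.104 with the block and 0.0733 without the arrays numbered 4). Plk1, the Polo-like kinase, had 11.76, 11.76, 11.73 and 11.97 in deprived cells, against 12.15, 12.01, 12.11 and 12.35 in control cells. Its groups did not overlap, and only Ccnf and Ube2c among the other members were also separated downwards on all 8 arrays, 3 of 34 in all, against 5.38 percent of all genes. Plk1 differed by -0.35 (SE 0.09), with an adjusted p of 0.0812 in limma, 0.00192 with the block and 0.00571 without the arrays numbered 4. Aurka and Aurkb, the Aurora kinase genes, differed by -0.01 (SE 0.17) and -0.14 (SE 0.14) and passed in none of the 3 fits. Neither did the checkpoint genes Bub1 (-0.10, SE 0.11), Bub1b (-0.10, SE 0.27) and Ttk (-0.10, SE 0.15).

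On the anaphase-promoting complex, Ube2c is the ubiquitin-conjugating enzyme and Cdc20 the activator. Ube2c had 10.65, 10.60, 10.57 and 10.59 in deprived cells, against 11.07, 10.81, 10.88 and 10.82 in control cells. It was 1 of 4 members that were not highest on array 4 in both groups. It differed by -0.29 (SE 0.08; adjusted p = 0.0898 in limma, 0.00762 with the block and 0.024 without the arrays numbered 4). Cdc20 differed by -0.23 (SE 0.12), which passed with the block (adjusted p = 0.0217) but not without it (0.508) or without the arrays numbered 4 (0.0776).

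Among the motors, Kif20a and Kif23 act in the midzone and in cytokinesis. Kif20a had 10.65, 10.75, 10.70 and 11.17 in deprived cells, against 11.11, 11.00, 11.09 and 11.72 in control cells, and only the deprived array numbered 4 reached the control range. It differed by -0.41 (SE 0.17), with an adjusted p of 0.318 in limma, 0.00135 with the block and 0.00403 without the arrays numbered 4. Kif23 had 10.21, 10.46, 10.51 and 10.74 in deprived cells, against 10.70, 10.80, 10.83 and 11.16 in control cells. It differed by -0.39 (SE 0.13; adjusted p = 0.171 in limma, 0.00113 with the block and 0.0135 without the arrays numbered 4). Kif2c, a microtubule-depolymerizing kinesin, differed by -0.25 (SE 0.20; adjusted p = 0.795 in limma, 0.0203 with the block and 0.0886 without the arrays numbered 4). Kif11, which pushes the spindle poles apart, had 11.54, 11.70, 11.63 and 11.87 in deprived cells, against 11.65, 11.60, 11.59 and 11.91 in control cells, and the groups overlapped with a difference of less than 0.01 in size (SE 0.10).

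At the kinetochore and centromere, Cenpf had 10.05, 10.18, 10.12 and 10.51 in deprived cells, against 10.48, 10.32, 10.41 and 11.07 in control cells. It differed by -0.36 (SE 0.17; adjusted p = 0.404 in limma, 0.00623 with the block and 0.0206 without the arrays numbered 4). Cenpa, the centromeric histone H3 variant, had 10.79, 10.64, 10.65 and 11.18 in deprived cells, against 10.95, 10.87, 10.88 and 11.63 in control cells. It differed by -0.26 (SE 0.19; adjusted p = 0.732 in limma, 0.0176 with the block and 0.0886 without the arrays numbered 4). Cenpe, a kinetochore kinesin, differed by -0.23 (SE 0.10; adjusted p = 0.331 in limma, 0.0263 with the block and 0.0785 without the arrays numbered 4). The outer kinetochore genes Ndc80 and Nuf2, whose products form one complex, differed by 0.06 (SE 0.24) and -0.19 (SE 0.18), and neither passed in the 3 fits. Birc5, survivin of the chromosomal passenger complex, differed by -0.27 (SE 0.19; adjusted p = 0.744 in limma, 0.0144 with the block and 0.0474 without the arrays numbered 4). Hmmr, a spindle assembly factor gene, differed by -0.26 (SE 0.14; adjusted p = 0.504 in limma, 0.0239 with the block and 0.0712 without the arrays numbered 4).

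Ect2, which is needed for cytokinesis, was the single member with all 4 deprived arrays above all control arrays, against 5.15 percent of all genes. It had 11.75, 11.77, 11.70 and 11.71 in deprived cells, against 11.64, 11.55, 11.52 and 11.59 in control cells, and differed by 0.16 (SE 0.07; adjusted p = 0.322 in limma and 0.0953 with the block). Mki67, the proliferation marker Ki-67, had 11.69, 11.78, 11.69 and 11.93 in deprived cells, against 11.84, 11.76, 11.77 and 12.02 in control cells, a difference of -0.07 (SE 0.09). Top2a, the topoisomerase that untangles sister chromatids, had 11.31, 11.44, 11.37 and 11.96 in deprived cells, against 11.45, 11.33, 11.34 and 12.10 in control cells, a difference of -0.03 (SE 0.20). For both, the groups overlapped and no fit of the 3 passed. A second, dim row of Top2a with a mean level of 4.93 differed by -0.13 at 5 h and by -0.20 at 16 h, where the row used was higher. The 3 rows of Cks2, a Cdk1-binding protein gene, could not be told apart by name, and they differed by -0.01, -0.02 and -0.02 at 5 h.

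The remaining members passed in none of the 3 fits. Cdc25c differed by -0.13 (SE 0.31) and Tpx2, which activates Aurora A, by -0.07 (SE 0.13). Dlgap5, a spindle microtubule protein gene, differed by -0.17 (SE 0.23), and Prc1, the bundler of midzone microtubules, by -0.10 (SE 0.10). Cdca8, borealin of the passenger complex, differed by -0.11 (SE 0.14), and Nusap1 and Anln by -0.07 (SE 0.09) and -0.03 (SE 0.07).

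**Figure D2:**
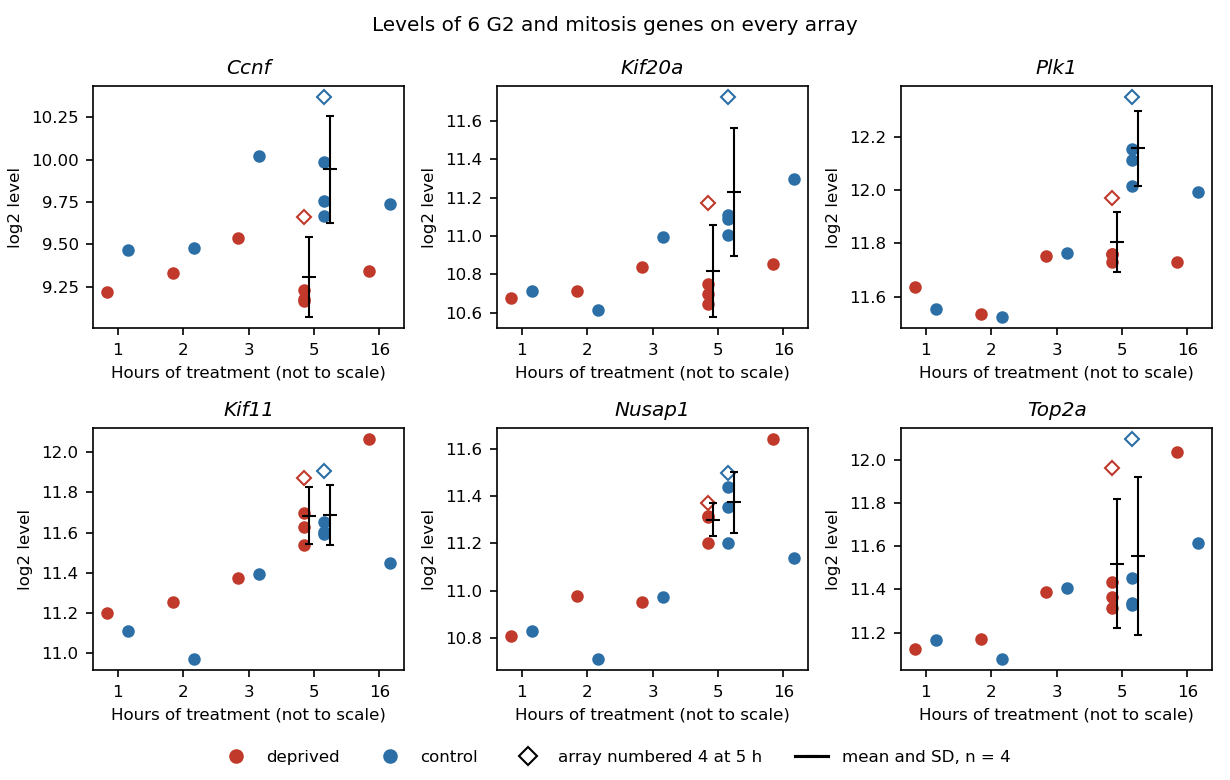
Log2 levels of Ccnf, Kif20a, Plk1, Kif11, Nusap1 and Top2a (y axes, each with its own range that does not start at 0) on every array against hours of treatment, deprived in red to the left of control in blue; open diamonds are the 5 h arrays numbered 4 and black bars the 5 h mean and SD of 4 arrays. At 5 h Ccnf and Plk1 do not overlap between groups, and at 16 h Kif11, Nusap1 and Top2a are higher in the deprived sample while Ccnf, Kif20a and Plk1 are lower.

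In both 5 h groups array 4 lay above the others for most members. The mean level of the 34 genes was 10.52, 10.54, 10.51 and 10.90 on deprived arrays 1 to 4, against 10.73, 10.64, 10.63 and 11.13 on the control arrays. In both groups 30 of the 34 genes were highest on array 4, against 28.3 percent of all genes. Array 4 was above the mean of arrays 1 to 3 by a median of 0.40 in deprived and 0.43 in control cells, while the median over all genes was -0.09 in deprived and -0.08 in control cells. Cdc25c, the phosphatase that activates Cdk1, was furthest above, by 0.95 in deprived and 1.21 in control cells. Ccna2 lay on the other side, 0.26 lower on array 4 in deprived and 0.25 lower in control cells. The G1 cyclin gene Ccnd1 followed this split too: it was at 7.49 on deprived array 4 while deprived arrays 1 to 3 were at 9.74 to 9.89, and at 8.10 on control array 4 while control arrays 1 to 3 were at 10.36 to 10.48. No label explains the array numbers, and the part of these arrays' culture, extraction or scan in the split was not tested.

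With arrays 1 to 3 alone, 17 of the 34 genes had every deprived array below every control array, against 16.4 percent of all genes, and 1 had the reverse, against 13.3 percent. In the 4 same-numbered pairs, 18 of the 34 were lower in deprived cells every time, against 19.3 percent of all genes. The labels do not pair these arrays. Among arrays 1 to 3, deviations of same-numbered arrays correlated by only 0.193, -0.003 and -0.2, so those pairs may be arbitrary. The median difference was -0.28 without the deprived array numbered 4, -0.04 without the control array numbered 4 and -0.11 without both. In limma, 2 members (Ccnf and Plk1) were lower without the deprived array 4, against 2.17 percent of all genes lower, and none passed without the control array 4, against 5.35 percent of all genes. When the block was kept and these 2 arrays were left out, 6 members were lower, against 5.96 percent. A further quantile normalization had 3 members lower (Plk1, Ube2c and Ccnf), against 2.77 percent, and array weights had 11 lower and 1 higher (Ect2), against 14.4 percent of all genes lower and 13.1 percent higher.

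**Figure D3:**
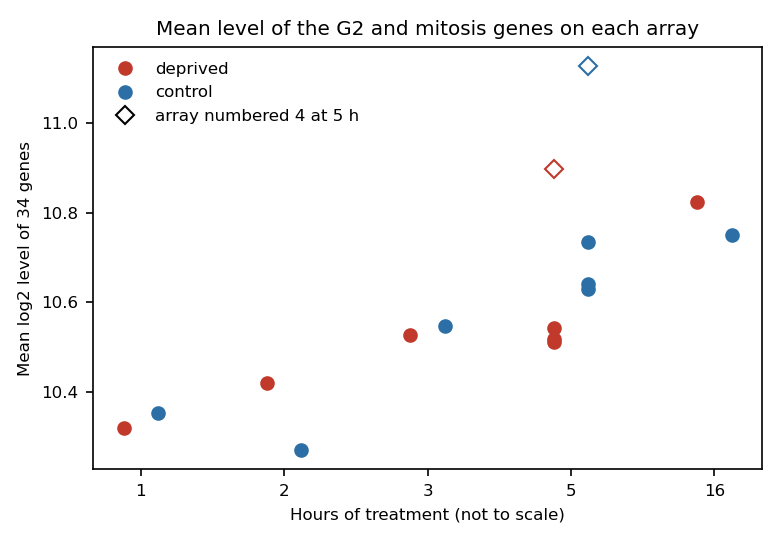
Mean log2 level of the 34 genes (y axis, not starting at 0) on each of the 16 arrays against hours of treatment, deprived in red to the left of control in blue, with open diamonds for the 5 h arrays numbered 4. The arrays numbered 4 lie at 10.90 (deprived) and 11.13 (control), above the other 5 h arrays at 10.51 to 10.54 (deprived) and 10.63 to 10.73 (control).

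The second comparison was that of the 16 h samples, 1 deprived and 1 control, where no replicate check exists. Of the 34 genes 21 were higher and 13 lower in the deprived sample, while 43.8 percent of all genes were higher and 56.2 percent lower. The median difference was 0.09, and that over all genes was -0.04. No member reached a difference of 1 in either direction, against 1.96 percent of all genes higher and 2.97 percent lower by that amount. A difference of at least 0.5 was seen for Kif11 and Nusap1, both higher, against 9.36 percent of all genes higher by that amount, and no member was lower by it, against 8.99 percent. Kif11 alone was higher by 1.5-fold, against 7.32 percent of all genes.

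The members highest over control at 16 h began with Kif11, which was at 12.06 in the deprived and 11.45 in the control sample, a difference of 0.62 or a fold of 1.53. Nusap1, which codes for a microtubule-bundling spindle protein, was at 11.64 in the deprived and 11.14 in the control sample. Ect2 was at 12.20 in the deprived and 11.75 in the control sample, and Top2a at 12.04 and 11.62 in the same order. Bub1 was at 11.13 in the deprived and 10.76 in the control sample. Of further members, Ndc80 and Cdca8 were each higher by 0.37, Anln, a furrow scaffold gene, by 0.36 and Ttk by 0.34. Mki67 was at 12.16 in the deprived and 11.84 in the control sample, and Cdk1 at 11.88 and 11.76 in the same order. For Kif11, Nusap1, Ect2, Bub1, Cdca8, Anln, Mki67 and also Ccna2 the deprived 16 h level was above every other array of the series. Top2a reached 12.10 on control array 4 of 5 h.

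The genes lowest at 16 h included several of those that were lower at 5 h with the block. Kif20a was at 10.86 in the deprived and 11.29 in the control sample, a difference of -0.44 or a fold of 0.738. Ccnb2 was at 11.93 in the deprived and 12.33 in the control sample, Cenpa at 10.95 in the deprived and 11.34 in the control sample, and Cenpf at 10.19 in the deprived and 10.58 in the control sample. Ccnf was at 9.35 in the deprived and 9.74 in the control sample, Plk1 at 11.73 in the deprived and 11.99 in the control sample, and Cdc20 at 10.48 in the deprived and 10.72 in the control sample. Of the 13 members lower at 5 h with the block, 10 were also below 0 at 16 h, with a median of -0.24, against 84.6 percent of the 1993 genes of the whole table that were lower at 5 h with the block. Of the other 21 members 3 were below 0, with a median of 0.21, against 56.2 percent of all genes below 0. That share over all genes includes the 1993 that were lower at 5 h with the block. The samples of the 5 h and 16 h comparisons were separate, and the plot of one against the other shows both sets of members.

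**Figure D4:**
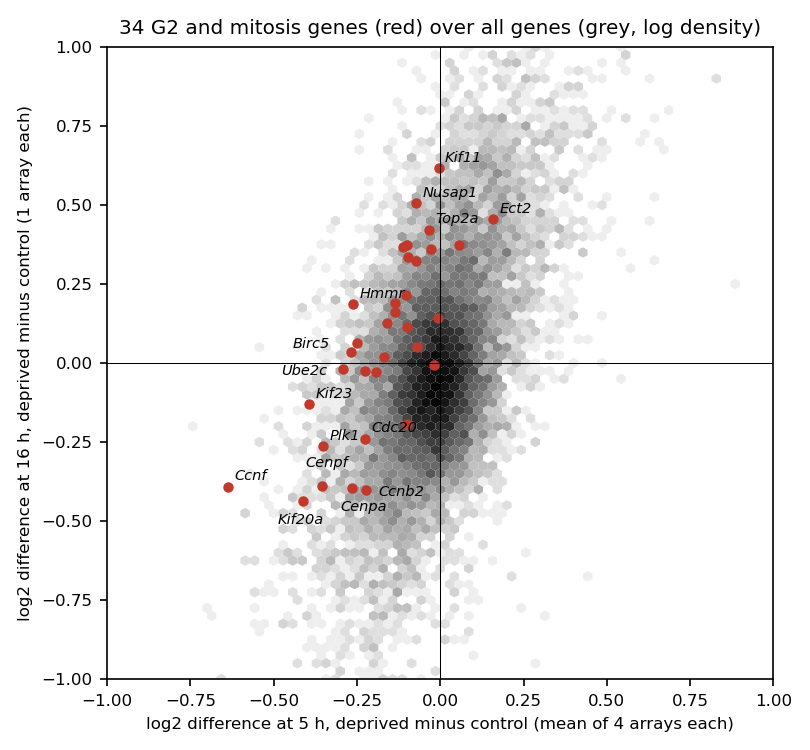
Log2 difference at 16 h (y axis, deprived minus control, 1 array each) against that at 5 h (x axis, deprived minus control, mean of 4 arrays each); red points are the 34 genes, grey shading is the log density of all genes, and genes beyond 1 on either axis are not drawn. Ccnf, Kif20a, Cenpf, Cenpa, Ccnb2 and Plk1 lie below 0 on both axes, and Kif11, Nusap1 and Top2a lie near 0 at 5 h and above 0 at 16 h.

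A limma fit over all 16 arrays lends the 16 h samples the spread of the 5 h arrays and assumes that a lone sample varies as those do. None of the 34 genes passed in it, against 5.99 percent of all genes, and the lowest adjusted p was 0.0868 (Ect2). An unadjusted p under 0.05 was found for 4 members and for 3467 of all 19938 genes. When the arrays numbered 4 were left out of that spread, 12 of the 34 (35.3 percent) passed, 8 higher and 4 lower, against 23.8 percent of all genes, 12.1 percent higher and 11.7 percent lower. The higher ones were Kif11 (adjusted p = 0.00297), Ect2, Nusap1, Top2a, Cdca8, Anln, Bub1 and Ndc80, and the lower ones Kif20a (adjusted p = 0.0179), Ccnb2, Cenpa and Cenpf. With the replicate number as a block 7 passed (20.6 percent), 6 higher and 1 lower (Kif20a), against 23.6 percent of all genes, 12.1 percent higher and 11.4 percent lower, so the members' share is near the background there. A further quantile normalization had 3 higher (Nusap1, Ect2 and Anln), against 4.87 percent.

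The same fit tested whether the 16 h difference departed from the 5 h difference. No member passed, against 0.988 percent of all genes. An unadjusted p under 0.05 was found for 3 members and for 1992 of all 19938 genes. Without the arrays numbered 4, Kif11 (0.61; adjusted p = 0.0142), Cdca8 (0.53; 0.0209 in limma), Nusap1 (0.56; 0.0385) and Bub1 (0.47; 0.0452) were more positive at 16 h, 4 of 34 against 6.02 percent of all genes. With the block 3 of these passed, against 6.12 percent, and Cdca8 did not (adjusted p = 0.0585 in limma). Kif20a, Cenpf, Ccnb2 and Plk1 did not pass under any of the 3 fits.

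Markers of other cell states also differed in the 16 h samples. All 8 neural progenitor and all 9 fibroblast markers were lower in the deprived sample, by a median of 0.54 and 0.46 in size, against 56.2 percent of all genes lower. Of the neuron markers 10 of 12 and of the astrocyte and oligodendrocyte markers 7 of 8 were lower, both with a median of -0.18. Over all times the mean level of the progenitor markers ran from 8.61 to 9.28 on deprived and from 9.07 to 9.46 on control arrays, and that of the fibroblast markers from 8.23 to 8.88 and from 8.79 to 9.16 in the same order. Their part in the 16 h differences of the mitotic genes was not tested.

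At 1, 2 and 3 h no member differed by 0.5 or more, against 0.226, 0.787 and 0.843 percent of all genes higher and 0.557, 0.978 and 1.1 percent lower by that amount in the order of the times. At 2 h, 30 of the 34 were higher in the deprived sample, against 48.2 percent of all genes, with a median of 0.17 and the largest difference in Ttk, at 9.02 in the deprived and 8.59 in the control sample. Cenpe followed, at 10.25 in the deprived and 9.89 in the control sample, and then Kif2c, at 10.11 in the deprived and 9.77 in the control sample. The mean level of the 34 genes was 10.42 in the deprived and 10.27 in the control sample at 2 h, and the control value was the lowest of all 16 arrays. The deprived sample lay between those of 1 h (10.32) and 3 h (10.53). At 1 h 13 members were higher and 21 lower (median -0.03), against 47 percent of all genes lower. At 3 h 11 were higher and 23 lower (median -0.02), against 45.7 percent lower, but a further quantile normalization gave 22 higher and 12 lower. Ccnf was lower at all 5 times, by 0.25 at 1 h, 0.15 at 2 h and 0.49 at 3 h, where it was at 9.54 in the deprived and 10.02 in the control sample. Its levels at 1 h were 9.22 in the deprived and 9.47 in the control sample, and at 2 h 9.33 and 9.48 in the same order. The mean difference over 1, 2, 3 and 16 h, fitted in limma beside a term for each time, passed for no member and for 0 percent of all genes, with 1 member and 1244 genes at an unadjusted p under 0.05.

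Levels also differed between times within each treatment, with 1 array at most times and so no test. In deprived cells 33 of 34 members were higher at 16 h than at 1 h, by a median of 0.47, and in control cells 34 of 34 were, by a median of 0.41. Of all genes 49.9 percent were higher at 16 h in deprived and 60.2 percent in control cells. In deprived cells the largest differences were those of Ndc80 (1.04), Bub1 (1.02) and Ect2 (1.01), while Ccnb2 (0.10), Plk1 (0.09) and Ube2c (0.06) were near their 1 h level. In control cells Ccnb2 and Plk1 were higher by 0.55 and 0.44. On the 5 h arrays numbered 1 to 3, members were above their 1 h level by a median of 0.18 in deprived and 0.29 in control cells.

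The wider mitotic machinery was described with lists chosen by function. At 5 h, of 35 further regulators of mitotic entry and exit none rose and 1 fell. Of all genes 2.41 percent rose and 1.7 percent fell, which is also the background of the other unblocked counts in this paragraph. The 1 that fell was Gtse1, a microtubule-binding protein gene that is high in G2. Gtse1 had 8.91, 8.96, 8.87 and 8.66 in deprived cells, against 9.51, 9.35, 9.30 and 9.16 in control cells, without overlap, and fell by 0.47 (SE 0.10; adjusted p = 0.0269 in limma). The call of Gtse1 was lost when any 1 of arrays 1 to 3 of either group was left out (adjusted p 0.0128 to 0.0941 over the 8 arrays left out in turn). Its difference at 16 h was 0.07. With the block 2 of this list were higher and 10 lower, against 8.22 percent of all genes higher and 10 percent lower, which is also the background of the blocked counts that follow. Of 38 spindle, centrosome and cytokinesis genes 1 fell, Ckap2l, a spindle protein gene, by 0.34 (SE 0.07; adjusted p = 0.0222; 0.0343 to 0.0952 with 1 array left out, lost without any of deprived arrays 1 to 3 or control arrays 1 and 2), and 11 were lower with the block. Of 39 kinetochore and centromere genes none passed, and with the block 1 was higher and 10 lower. Of 22 condensin and cohesin genes, which shape and hold sister chromatids, none passed, and with the block 5 were higher and none lower. The lists' median differences at 5 h were -0.12, -0.13, -0.08 and 0.08 in the order given, beside -0.01 for all genes.

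At 16 h the condensin and cohesin genes had a median difference of 0.52, with 19 of 22 above 0, and the kinetochore genes one of 0.28, with 33 of 39 above 0, beside a median of -0.04 and 43.8 percent above 0 over all genes. Esco2, a cohesin acetyltransferase, was higher by 1.10 (adjusted p = 0.00382 in limma with the pooled spread), Cenpq, a centromere protein gene, by 1.03 (0.0054) and Stil, a centriole assembly gene, by 0.97 (0.00882). Each was the only call of its list (1 of 22, 1 of 39 and 1 of 38), against 3.1 percent of all genes higher. Ncapg2, a condensin subunit gene, was higher by 1.15, Oip5 by 1.41, Cenpk by 1.15 and Plk4, the kinase of centriole duplication, by 0.85. Esco1 of the condensin and cohesin list was higher by 1.11 and Ensa of the entry and exit regulators by 0.63. Trip13 and Sass6 of the spindle list were higher by 1.13 and 0.93. None of these genes passed unless the arrays numbered 4 were left out of the spread or the block was used. Anapc13, a subunit of the anaphase-promoting complex, was lower by 0.94, again without passing in the unblocked fit of all arrays. The median was 0.10 for the entry and exit regulators and 0.09 for the spindle list.

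Of the 24 genes of the DREAM, B-Myb, FoxM1 and E2F regulators, 2 rose at 5 h and none fell, against 2.41 percent of all genes higher and 1.7 percent lower. Rb1, the retinoblastoma gene, rose by 0.42 (SE 0.08; adjusted p = 0.0135 in limma) and Tfdp2, a dimerization partner of E2F, by 0.55 (SE 0.11; adjusted p = 0.0206). With 1 array left out in turn the adjusted p ran from 0.0114 to 0.0627 for Rb1, lost without deprived array 1, 2 or 3 or control array 2, and from 0.00747 to 0.0736 for Tfdp2, lost without deprived array 1 or 3 or control array 1, 2 or 3. The blocked fit had 7 of them higher and 2 lower, against 8.22 and 10 percent of all genes. At 16 h, with the pooled spread, 4 were higher (Lin54 by 1.06, Lin52 by 1.02, Tfdp2 by 0.97 and Rb1 by 0.75), against 3.1 percent of all genes, and 21 of the 24 were above 0, against 43.8 percent. Nfyb of this list was higher by 1.09 without passing in the unblocked fit of all arrays. Lin52 and Lin54 are subunits shared by the repressing and activating complexes that read the CHR element. Foxm1 had 10.57, 10.72, 10.53 and 10.79 in deprived cells at 5 h, against 10.60, 10.57, 10.60 and 10.83 in control cells, with no difference at 2 decimals and adjusted p = 1 in limma. Mybl2, the B-Myb gene, differed by -0.03 (SE 0.09), and E2f1 by 0.15 (SE 0.09).

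Of 20 G1 genes (cyclins, cyclin-dependent kinases, their inhibitors and Myc), 2 fell and 1 rose at 5 h, against 1.7 percent of all genes lower and 2.41 percent higher. Ccne1, cyclin E1, had 8.71, 8.78, 8.75 and 8.38 in deprived cells, against 9.72, 9.76, 9.63 and 9.44 in control cells, and fell by 0.98 (SE 0.11; adjusted p = 0.00123 in limma). Ccnd3, cyclin D3, fell by 0.55 (SE 0.08; adjusted p = 0.00454), and Myc, a growth-promoting transcription factor, rose by 1.34 (SE 0.18; adjusted p = 0.00268). Ccnd1 differed by -0.61 (SE 0.65), which passed with the block (adjusted p = 5.03e-05) and without the arrays numbered 4 (0.000224), but not in the unblocked fit of all 8 arrays (0.934 in limma). Cdkn1b, the inhibitor p27, differed by 0.25 (SE 0.07; adjusted p = 0.11 in limma, 0.0184 with the block). At 16 h, with the pooled spread, 2 of the 20 were higher and 1 lower, against 3.1 and 2.89 percent of all genes. Myc was higher by 2.18 (SE 0.35; adjusted p = 0.00672 in limma), and Ccnh, cyclin H, was higher by 0.76 (0.0346) and the inhibitor gene Cdkn2c lower by 0.55 (0.0367), the last pair named after their values were seen. The inhibitor genes Cdkn2b and Cdkn2a differed by -1.32 and -0.94 without passing in the unblocked fit of all arrays.

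Of 13 p53-linked G2 arrest genes, Gadd45a, a stress-induced inhibitor of Cdk1, rose at 5 h by 1.72 (SE 0.15; adjusted p = 0.000303 in limma) and Sesn1 fell by 0.73 (SE 0.16; adjusted p = 0.0377), against 2.41 percent of all genes higher and 1.7 percent lower. The call of Sesn1 was lost when any 1 of arrays 1 to 3 of either group was left out (adjusted p 0.00558 to 0.132 over the 8 arrays left out in turn). Gadd45a had 10.59, 10.56, 10.39 and 10.96 in deprived cells, against 8.87, 8.79, 8.70 and 9.27 in control cells. The groups did not overlap, and Gadd45a was also higher by 0.37 after 1 h, 1.34 after 2 h, 1.21 after 3 h and 1.90 after 16 h. At 16 h, with the pooled spread, 2 of the 13 were higher and 1 lower, against 3.1 and 2.89 percent of all genes. The higher ones were Gadd45a (adjusted p = 0.00611 in limma) and Btg2, an antiproliferative gene, by 1.14 (adjusted p = 0.00367). Sesn1 was lower by 1.68 (adjusted p = 0.0165).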

How the data were processed

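Per the labels' protocols, 250 ng of total RNA from each N25/2 sample gave labelled sense-strand cDNA for a whole-transcript array. The authors deposited log2 values (35556 rows, 16 arrays); RMA and limma are named, with no version, in the submitters' processing notes, and settings are not given in the sources used here. No further normalization was applied.

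Rows with 1 gene symbol (21789; 1621 had several and 12146 were unnamed) were kept, symbols were updated by Entrez identifier (21698 matched a current GRCm38.p6 gene table), and the row with the highest mean was used for each gene, leaving 19938. Limma 3.58.1 in R 4.3.3 was fitted on all genes (two-sided, Benjamini-Hochberg, adjusted p threshold 0.05): at 5 h on 8 arrays, over the single-array times with time as a factor, and on all 16 arrays with 1 mean per group, where the 5 h arrays supply the spread. The fits of all arrays, and the blocked fit at 5 h, were also run on simulated data with independent arrays. That simulation held no shift of the arrays numbered 4, so it cannot speak to results that turn on them. Figures used Python 3.11.15 and matplotlib 3.10.9.

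At 5 h, deviations from the group means correlated between same-numbered arrays by 0.354, 0.584, 0.467 and 0.896, so numbers were treated as pairs and a blocked fit was run beside the main one. Among arrays 1 to 3 the correlations were 0.193, -0.003 and -0.2, so the pairing comes from array 4. Other alternatives were a further quantile normalization, centring, genes above the median level, the mean of a gene's rows, a trended and robust prior, array weights and leaving out arrays.

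The members and lists were chosen with earlier results of these data known. All members are accounted for. Those described in more detail are up to 10 that pass at 5 h with or without the block. The 10 with the largest 16 h difference were added, as were Cdk1, Plk1, Mki67 and Top2a. Of all these, Birc5, Hmmr, Kif2c, Nusap1 and Bub1 are given in the text without single-array values at 5 h. Related lists contribute up to 3 genes passing at 5 h and 3 largest at 16 h, plus Foxm1, Mybl2, E2f1, Ccne1, Ccnd1 and Cdkn1b. Of the amino acid response check only Trib3 is given with values. Cdkn1a was not analysed here.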

Additional observations from a re-analysis of the deposited data

Results flagged for a closer look

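In groups of 4 arrays, 1 array lay far from the other 3 for 22 levels of members and for the mean of all 34 genes, and in every case it was the array numbered 4. For a gene taken alone, chance marks about 1 in 20 groups. The members share the same arrays and are not independent, so this rate cannot weigh the 22 levels together. The rule was run on the members only, so no share over all genes stands beside the count. In deprived cells, 11 members and the mean of all members (10.90) were marked: Ccna2 (12.50, the lowest of its group), Ccnb2 (12.15), Cdk1 (12.09), Cdc25c (9.25), Plk1 (11.97), Aurka (10.96), Bub1b (9.99), Birc5 (9.18), Ndc80 (10.23), Cdca8 (9.83) and Ccnf (9.66). In control cells, 11 were marked: Ccnb2 (12.55), Cdk1 (12.14), Cdc25c (9.58), Aurka (10.86), Aurkb (11.77), Bub1b (10.23), Kif20a (11.72), Cenpa (11.63), Top2a (12.10), Birc5 (9.61) and Ndc80 (10.12). Except for Ccna2, these arrays were the highest of their group.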

How the results depend on the processing

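No member passed at 5 h with all arrays, with arrays centred, with genes above the median level, with the mean of a gene's rows or with a trended and robust prior. The count of members was 13 with the replicate block (3632 of all genes), 12 with array weights (5485), 7 without both arrays numbered 4 (2695), 3 with a further quantile normalization, and 6 with the block and without those arrays (2316), a setting added after the data were seen. With array weights 11 were lower and 1 higher (Ect2). Leaving out 1 array at a time gave 0 to 2 members, 382 to 1066 genes and a member median of -0.28 to -0.04; Ccnf and Plk1 passed without the deprived array 4. In the mean over the single-array times, 35 genes and no member passed without the 16 h arrays, and none in the other settings. At 16 h the pooled fit called 3 members and 1817 genes with a further quantile normalization (Nusap1, Ect2 and Anln), 12 and 4748 without both arrays numbered 4, and 7 and 4699 with the replicate block; the departure of 16 h from 5 h called 4 and 2512, and 3 and 2448, in the last 2 settings. Of the genes of related lists, Gtse1, Ckap2l, Rb1, Tfdp2 and Sesn1 lost their 5 h call in 28 of their settings, mostly with 1 array left out, and Lin52 (quantile) and Tfdp2 (centring) lost theirs at 16 h. A smaller fold rule at 16 h gave 2 members at 0.5 and 1 at 1.5-fold.

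Some 5 h differences changed sign, among them those of Dlgap5 (-0.17 in the main fit), Cdc25c (-0.13) and Bub1b (-0.10). At 5 h those of Cdc25c, Ttk, Anln and Dlgap5 did so only without the control array numbered 4, with the deprived array numbered 4 kept. With array weights Bub1b was 0.0059, Kif11 0.0021, Top2a 0.032 and Tpx2 0.023; without both arrays numbered 4, with or without the block, Kif11 was 0.0055 and Tpx2 0.019; with a further quantile normalization Foxm1 was -0.015 and, at 16 h, Dlgap5 -0.044 and Cks2 0.014. Leaving out 1 array gave -0.37 to 0.17 for Cdc25c, -0.16 to 0.12 for Aurka, -0.31 to 0.16 for Bub1b, -0.21 to 0.010 for Ttk, -0.067 to 0.068 for Kif11, -0.18 to 0.15 for Top2a, -0.16 to 0.053 for Tpx2, -0.053 to 0.000675 for Anln, -0.31 to 0.062 for Dlgap5, -0.16 to 0.26 for Ndc80, -0.051 to 0.0025 for Cks2, -0.043 to 0.062 for Foxm1 and -0.074 to 0.052 for Mybl2. The causes were not tested.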
